A study of Mus musculus with 185 samples.

Results

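The interferon-stimulated genes (ISGs) described here are 41 genes named in a list, of the 45661 genes in the table of read counts of single epidermal Langerhans cells (LCs). The list sets the members, with no threshold on their values. All 41 genes have a row in the table. The cells came from bone marrow chimeras (BMC) of the mouse strain B6. The hosts were CD45.1 Cd207DTR mice, in which the Cd207 locus holds a receptor for diphtheria toxin (DT). They were lethally irradiated and received CD45.2 wild-type bone marrow. All hosts then received DT at 5 ng per gram of body weight, and LCs were sorted 2 months later, so irradiation, transplant and DT are common to both groups of cells. Host CD45.1 LCs are eLCs, of embryonic origin, and donor CD45.2 LCs are moLCs, derived from monocytes. The groups therefore also differ in the Cd207DTR allele, which the eLCs carry and the moLCs do not. The eLCs are the host cells still present after DT. Since no label ties a cell to an animal, each origin counts as 1 sample, and the origins are compared by size and counting error with no p-value.

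Interferons are cytokines that alert cells to viruses and other microbes. Type I interferons bind the receptor made of IFNAR1 and IFNAR2, whose kinases JAK1 and TYK2 activate STAT proteins. STAT2 and IRF9 are subunits of the complex ISGF3, which binds the interferon-stimulated response element (ISRE) in the promoters of ISGs. Type II interferon acts through IFNGR1 and IFNGR2, with JAK1 and JAK2, and leads to binding at gamma-activated sites (GAS). The products of ISGs detect viral nucleic acids, block the entry or copying of viruses, or regulate the response itself. LCs are the antigen-presenting cells of the epidermis, a barrier where such signals first arrive.

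Of 185 deposited cells, 182 had at most 5% of their reads on mitochondrial genes and were kept, 67 moLCs and 29 eLCs on plate 1 and 36 moLCs and 50 eLCs on plate 2. The 3 cells left out were moLCs of plate 2. Kept cells had between 432614 and 4525429 reads, with medians of 2948819 in moLCs and 2779080 in eLCs, and a median of 4026 and 4488 genes with a read. The reads of all cells of an origin were added up and expressed per 1000000 reads on all genes (CPM), and differences are log2 ratios of moLCs over eLCs. Intervals are at 95%. Those of levels and ratios cover read counting only, with PCR copies counted as reads, and those of shares cover the sampling of cells within an origin. Neither covers differences between animals. All 7 LC markers checked had reads in both origins. Among them Cd207, which encodes langerin, was at 26237 CPM in moLCs and 2159 CPM in eLCs, the cells with the modified locus. Of 9 monocyte markers, 3 had a read in moLCs (76.1 CPM summed, cells between 0 and 577 CPM) and 4 in eLCs (33.9 CPM, cells between 0 and 439 CPM). Nearly all of it was Lyz2, and Fcgr1 and S100a8 were at 0 in both. Of 7 plasmacytoid dendritic cell markers, 4 had a read in moLCs (7.32 CPM summed, cells between 0 and 245) and 1 in eLCs (5.0 CPM, cells between 0 and 156), and Siglech, Klk1 and Spib were at 0 in both. Keratinocyte markers summed to 23.3 CPM in moLCs (19 cells with a read, up to 686 CPM) and 8.71 CPM in eLCs (12 cells, up to 134 CPM). Dermal DC1 markers summed to 15.9 CPM in moLCs (19 cells, up to 333 CPM) and 31.6 CPM in eLCs (24 cells, up to 304 CPM). Markers of T cells, NK cells, neutrophils and melanocytes summed to at most 2.70 CPM in either origin. The part of these markers in the results was not tested.

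Sequences are shown first for Ifitm2 and Ifitm3, the members read in the most cells, since how alike they are bears on their counts. Ifitm2 (chr7:140954837-140955987, minus strand) and Ifitm3 (chr7:141009586-141010770, minus strand; GRCm38, the build also called mm10) are protein-coding genes of 2 exons each and encode related membrane proteins that restrict virus entry. Their coding sequences, 432 and 411 bases without the stop codon, were identical at 330 of 408 aligned bases (80.9%). The most alike stretch of 180 bases, with 13 differing bases in capitals, runs from coding base 130 to 309 in Ifitm2 and from 133 to 312 in Ifitm3:
Ifitm2: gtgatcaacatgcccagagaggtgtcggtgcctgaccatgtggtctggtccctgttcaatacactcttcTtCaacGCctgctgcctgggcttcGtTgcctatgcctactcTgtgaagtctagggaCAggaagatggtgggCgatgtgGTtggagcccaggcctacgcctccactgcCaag
Ifitm3: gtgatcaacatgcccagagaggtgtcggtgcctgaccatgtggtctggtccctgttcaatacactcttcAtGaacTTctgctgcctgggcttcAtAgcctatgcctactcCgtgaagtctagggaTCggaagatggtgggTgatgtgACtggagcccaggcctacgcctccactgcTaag
Over windows of 75 bases, the length of 1 read mate, 4 of 604 windows of the Ifitm3 transcript (0.66%) occurred in a transcript of another gene, and none of those was Ifitm2. Of the 581 windows of Ifitm2, 42% occurred elsewhere, mainly in Gm45717, a gene model that overlaps 40.9% of its exon bases on the same strand and has no row in the table of counts used here; the other genes with such windows, Gm8865 and Gm11951, were at 0.400 and 0.466 CPM in moLCs and 0.285 and 0.312 CPM in eLCs. By contrast, Ifit3 and Ifit3b, paralogs that encode RNA-binding antiviral proteins, were identical at 1198 of 1209 coding bases (99.1%) and shared 41.1% and 35.7% of their windows. Counts of either are therefore uncertain. Oas1a shared 47.6% of its windows with Oas1g, so its values are uncertain in the same way.

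Promoter sequences from RefSeq (GRCm38.p6) were found for 31 of the 41 members, as 36 windows of 300 bases. Each window runs from 250 before to 50 after a start given by that source. This start can differ from that of the gene coordinates used here, and some windows, as for Plscr1 and Ifitm1, lie wholly inside the gene. No entry was found for Mx1, Mx2, Zbp1, Rtp4, Usp18, Oas2, Ifi204, Parp14, Dhx58 and Ifi27l2a. An ISRE core, spelled GAAANNGAAA and searched on both strands with overlapping matches counted, occurred in 19 of the 36 windows (52.8%), against 1131 of 32851 windows of all genes (3.44%). By gene it occurred in 18 of 31 members, 5 of the 8 that had no read in any cell and 13 of the 23 that had one. The GAS core TTCNNNGAA occurred in 10 of the 36 windows (27.8%), against 8.30% of all windows. A match is a description of the letters in the window and not of binding. The 200 bases upstream of the start are shown for the most abundantly read member and for members with the element that were read rarely or not at all, with ISRE cores in capitals:
Ifitm2, chr7:140955962-140956161, minus strand: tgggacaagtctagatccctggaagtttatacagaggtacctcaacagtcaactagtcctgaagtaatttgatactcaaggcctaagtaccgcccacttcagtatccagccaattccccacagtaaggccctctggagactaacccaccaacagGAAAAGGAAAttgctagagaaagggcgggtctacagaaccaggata
Isg15, chr4:156200819-156201018, minus strand: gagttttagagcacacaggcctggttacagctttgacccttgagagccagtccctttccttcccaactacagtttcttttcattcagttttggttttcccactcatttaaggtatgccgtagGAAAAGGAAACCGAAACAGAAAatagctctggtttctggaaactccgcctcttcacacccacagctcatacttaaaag
Ifit1, chr19:34640689-34640888, plus strand: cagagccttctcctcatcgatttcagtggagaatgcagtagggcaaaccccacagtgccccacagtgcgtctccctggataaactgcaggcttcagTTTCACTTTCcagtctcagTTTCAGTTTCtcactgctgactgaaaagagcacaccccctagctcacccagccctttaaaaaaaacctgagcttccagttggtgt
Ifit3, chr19:34583329-34583528, plus strand: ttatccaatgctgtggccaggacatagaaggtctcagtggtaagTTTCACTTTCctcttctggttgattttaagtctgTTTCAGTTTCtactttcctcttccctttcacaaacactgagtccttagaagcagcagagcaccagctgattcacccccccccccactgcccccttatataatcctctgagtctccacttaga
Ifit3b, chr19:34607757-34607956, plus strand: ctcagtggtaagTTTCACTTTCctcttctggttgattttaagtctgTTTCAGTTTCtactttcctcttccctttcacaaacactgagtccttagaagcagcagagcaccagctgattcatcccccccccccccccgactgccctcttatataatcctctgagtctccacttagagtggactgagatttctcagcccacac
The core thus occurs upstream of Ifitm2, the member with the most reads, of Isg15, which was read in 19 cells, and of Ifit1, Ifit3 and Ifit3b, which had no read in any cell. In Ifitm3 the window held 2 cores that began 3 and 20 bases into the transcribed part. The Plscr1 window (chr9:92249944-92250243) held no ISRE core, but 1 GAS core. It lies inside the gene (start at 92249750), so the bases before that start were not searched.

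Of the 41 members, 12 had 0 reads in all 182 cells. They were all 4 IFIT genes (Ifit1, Ifit2, Ifit3 and Ifit3b), both Mx genes (Mx1 and Mx2, which encode antiviral GTPases; Mx2 is annotated as a polymorphic pseudogene), Rsad2 (viperin, which makes a chain-terminating nucleotide), Zbp1 (a sensor of left-handed nucleic acid), Rtp4, Ifi44, and the GTPases Ifi47 and Gbp2. By the exact interval, a count of 0 allows up to 3.52% of moLCs and 4.56% of eLCs with a read. The floor of 3 reads is 0.00999 CPM for all moLCs and 0.0138 CPM for all eLCs, a setting for ratios and not a limit of detection. Among all genes 61% had no read, against 29.3% of the members. Another 8 members reached a share of 25% of cells with a read in either origin, which was 19.5% of the members against 14.3% of all genes. In order of the share of all cells these were Ifitm2, Ifitm3, Ifi204, Ifi35, Samhd1, Oas1a, Plscr1 and Stat2. The other 21 had a read in fewer cells, down to Oasl1 and Oasl2, each read in 1 moLC.

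**Figure D1:**
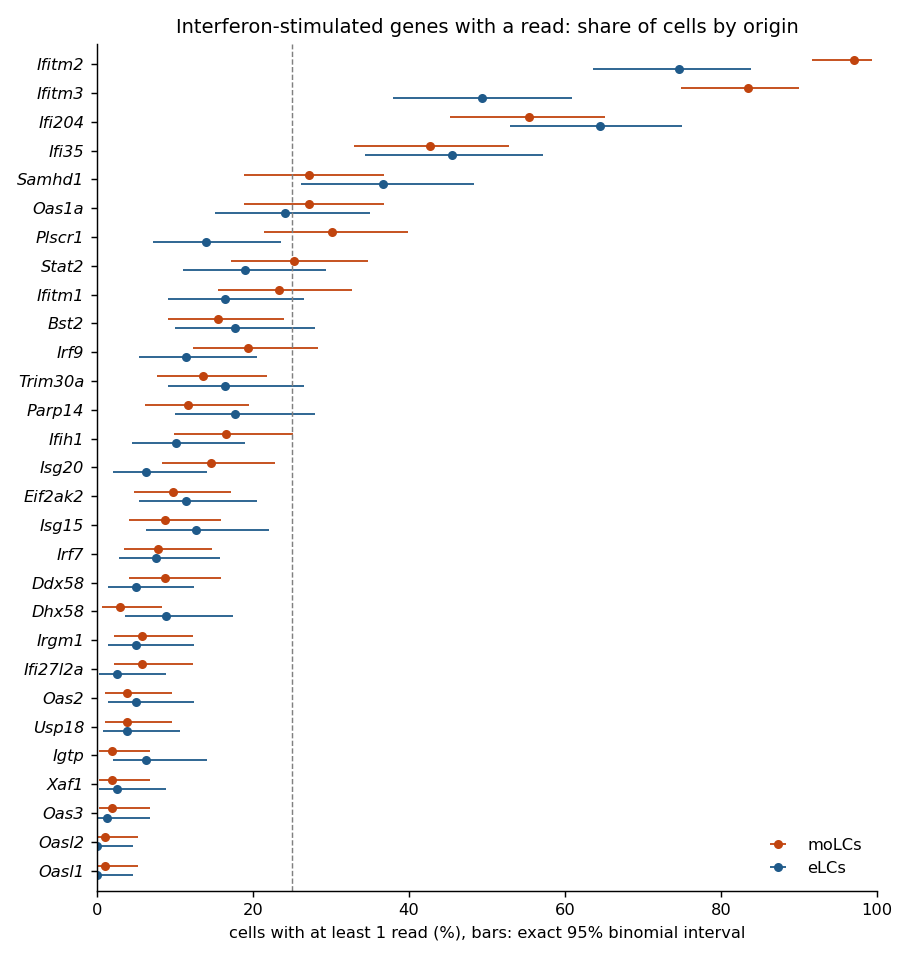
Share of cells with at least 1 read (x axis, %) for the 29 members with a read (y axis), in moLCs and eLCs, with exact 95% binomial intervals as bars and a dashed line at 25%. Ifitm2 (97.1% of moLCs against 74.7% of eLCs) lies furthest to the right in both origins. Ifitm3 (83.5% against 49.4%) comes next in moLCs, but in eLCs it lies to the left of Ifi204 (64.6%). A further 21 members lie under 25% in both.

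A size rule was applied to the 8 frequently read members: the summed levels had to differ 2-fold or more, and in 1 direction, pooled and also within plate 1 and within plate 2. Plscr1 and Ifitm3 passed it, both higher in moLCs. Over all 6522 genes read as often, 2.02% passed in either direction and 0.813% with higher values in moLCs. Among the 8 members 5 had the higher level in moLCs, as had 39.4% of the 6522 genes, and the 8 had a median log2 ratio of 0.02, against a median of -0.10 over the 6522 genes. Within plates the median of the 8 was 0.42 in plate 1 and 0.44 in plate 2. Since the origins were unevenly spread over the plates, pooled values can mix plate with origin. Ifi35, lower in moLCs in the pooled cells (-0.06), was at 0.14 in plate 1 and 0.09 in plate 2. Scaling by TMM factors raised the median of all tested genes by 0.10, and Ifi35 was then also higher in moLCs, which made 6 of 8, with a median of 0.13. With equal weight for each cell, and with cells thinned to equal depth, 4 of 8 were higher in moLCs, with medians of -0.05 and 0.02.

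**Figure D2:**
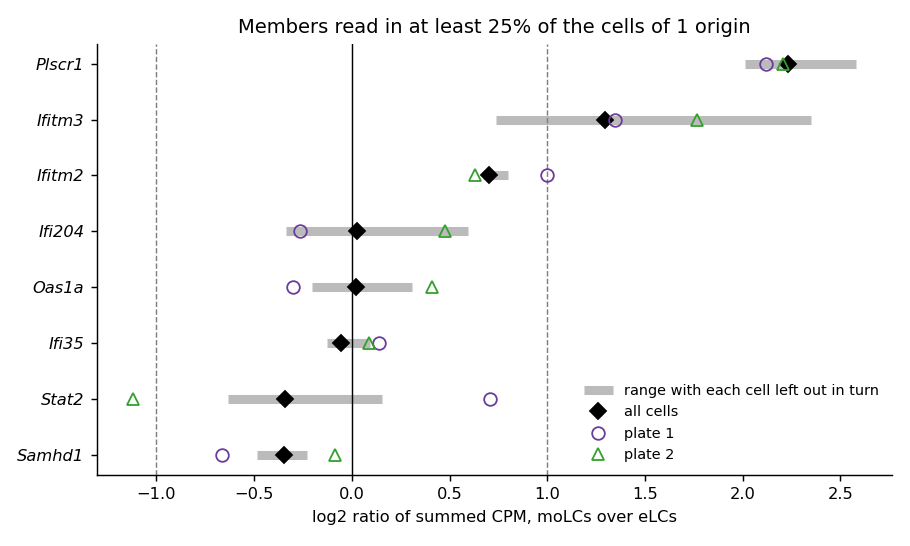
Log2 ratio of summed CPM, moLCs over eLCs (x axis), for the 8 members with a read in 25% or more of moLCs or eLCs (y axis), in all cells, in plate 1 and in plate 2, with grey bars for the range over leaving out each cell in turn and dashed lines at 2-fold. Plscr1 lies beyond 2-fold throughout, Ifitm3 crosses the line when 1 cell is left out, and Stat2 is on opposite sides of 0 in the 2 plates.

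Genes upstream of the members came from lists outside the 41. No interferon gene was read: 21 of 21 ligand genes, among them Ifnb1, Ifng and 13 genes named Ifna, had 0 reads in every kept cell. The receptors of type I interferons were read in most cells. The level of Ifnar1 in moLCs, 206 CPM, was close to the 188 CPM of eLCs (log2 ratio 0.13; -0.12 in plate 1 and 0.34 in plate 2), with a read in 78.6% and 84.8% of cells. Ifnar2 was at 145 and 143 CPM (0.02; -0.38 and 0.50 in the plates). Ifngr1 (33.7 and 33.3 CPM), Ifngr2 (163 and 197 CPM) and Il10rb (96 and 117 CPM) had log2 ratios of 0.02, -0.28 and -0.28, and Ifnlr1, the receptor of type III interferons, had no read. Jak1 was at 173 and 196 CPM and Jak2 at 232 and 164 CPM, whereas Tyk2 was at 12.4 and 23 CPM, read in 23.3% and 20.3% of cells. None of these genes passed the size rule. The interferon pathway thus had its type I and type II receptors and its Jak kinases read in both origins.

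The regulators among the members were read less often than the receptors. Stat2, a subunit of ISGF3, was found in 25.2% of moLCs against 19% of eLCs. Its cells ranged from 0 to 338 CPM in moLCs and from 0 to 383 CPM in eLCs, with a median of 0 in both, so the origins overlapped. Summed over cells it reached 14.9 CPM in moLCs against 18.9 CPM in eLCs, for a log2 ratio of -0.34 (-0.40 to -0.28). The plates disagreed: Stat2 was at 16.8 against 10.3 CPM in plate 1 (0.71) and at 11.4 against 24.8 CPM in plate 2 (-1.12). A single eLC of plate 2 held 1244 reads, 30.2% of all Stat2 reads of eLCs, and without it the pooled ratio was 0.15. Irf9, the DNA-binding subunit of ISGF3, was read in 20 moLCs and 9 eLCs, at 28.7 and 16.6 CPM, a log2 ratio of 0.79 (0.69 in plate 1, 0.66 in plate 2). Without 1 moLC of plate 2 the plate 2 ratio of Irf9 was -0.77, and after thinning the pooled ratio was 1.69. Irf7, the factor that amplifies interferon production, was read in 8 moLCs and 6 eLCs, at 15.1 and 8.84 CPM (0.77), and 1 moLC held 40.4% of its moLC reads. Usp18, a protease that removes ISG15 and restrains the receptor, was read in 4 moLCs and 3 eLCs, at 8.48 and 8.28 CPM (0.03), with 78.1% and 71.6% of its reads in 1 cell of each origin. Leaving out either cell moved the ratio of Usp18 to -2.14 or 1.84.

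The sensors differed among themselves. Ifi204, a DNA sensor of the p200 family, was detected in 55.3% of moLCs against 64.6% of eLCs, but its median in cells that had any was 2 reads. Its level was 5.11 CPM in moLCs and 5.02 CPM in eLCs (0.03; -0.26 in plate 1 and 0.48 in plate 2), with 23.3% and 33.7% of the reads in 1 cell. The cells ranged from 0 to 92.3 CPM in moLCs and from 0 to 120 CPM in eLCs. Of its windows of 75 bases 13.2% occurred in other genes, mainly Ifi211, which was at 119 CPM in moLCs and 162 CPM in eLCs, so single reads of Ifi204 are uncertain. Ifih1 (MDA5) and Ddx58 (RIG-I), the cytosolic sensors of viral RNA, were rarely read. Ifih1 had a read in 17 moLCs and 8 eLCs, at 9.77 and 1.34 CPM, a log2 ratio of 2.87 (3.66 in plate 1, 2.5 in plate 2). Without the moLC of plate 2 with 810 of its reads, the ratio of Ifih1 was 2.42 pooled and 0.25 in plate 2. Ddx58 had a read in 9 moLCs and 4 eLCs, at 10.6 and 2.17 CPM (2.29; 2.81 and 1.47). Without the same moLC the plate 2 ratio of Ddx58 was -1.49, and the pooled ratio was 3.38 after thinning and between 1.79 and 3.48 with 1 cell left out. The related Dhx58 (LGP2) went the other way, with 3 moLCs and 7 eLCs, at 2.48 and 6.84 CPM (-1.46; -0.80 without 1 eLC). Eif2ak2 (PKR), a kinase activated by double-stranded RNA, was read in 10 moLCs and 9 eLCs, at 5.72 and 11.7 CPM (-1.04), and was at 0.10 without the eLC that held 55.1% of its eLC reads.

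Among the effectors, the OAS genes encode enzymes that answer double-stranded RNA by making the activator of RNase L. Oas1a was detected in 27.2% of moLCs against 24.1% of eLCs, at 20.4 and 20.1 CPM, and its ratio was 0.02 (-0.30 in plate 1, 0.41 in plate 2). The cells spanned 0 to 297 CPM in both origins. Oas2 was read in 4 cells of each origin, at 2.55 and 4.08 CPM (-0.68). In each origin 1 cell held about 60% of its reads, and the ratio lay between -1.99 and 0.63 with 1 cell left out and at 0.08 after thinning. Oas3 had 26 reads in 2 moLCs and 76 reads in 1 eLC. The OAS-like genes Oasl1 and Oasl2 had 10 and 447 reads in 1 moLC each and none in eLCs. Their ratios of 1.27 and 6.76 take the floor of 3 reads for all eLCs and rest on 1 moLC each.

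The ubiquitin-like protein ISG15 is attached to other proteins in the response. Isg15 was read in 9 moLCs and 10 eLCs, at 11.5 and 9.59 CPM (0.27; -0.54 after thinning), lower in moLCs in plate 1 (-1.33) and higher in plate 2 (1.23). A single moLC of plate 2 held 2022 of its 3466 moLC reads, and without it the ratio was -0.99. Isg20, an exonuclease that degrades single-stranded RNA, was read in 15 moLCs and 5 eLCs, at 10.1 and 6.39 CPM (0.66; 0.69 in plate 1 and 0.88 in plate 2; 0.39 to 1.22 with 1 cell left out).

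The membrane proteins held most of the reads of the list. Ifitm2 was read in 100 moLCs (97.1%, 91.7 to 99.4%) and in 59 of 79 eLCs (74.7%, 63.6 to 83.8%). The moLCs ranged from 0 to 4837 CPM with a median of 881 CPM, and the eLCs from 0 to 4796 CPM with a median of 370 CPM. The ranges of Ifitm2 thus overlapped, and the median moLC was above the median eLC. Within plate 1 the median moLC was at 765 CPM and the median eLC at 274 CPM, and within plate 2 these medians became 974 and 407 CPM. Summed, Ifitm2 reached 999 CPM in moLCs against 614 CPM in eLCs (log2 ratio 0.70, 0.69 to 0.71), with 1.0 in plate 1 and 0.63 in plate 2. No single cell moved the ratio outside 0.67 to 0.80. Per kilobase of exon, moLCs had 1525 CPM of Ifitm2 against 938 CPM in eLCs. On that scale the next members in moLCs were Ifi35 at 20.6, Plscr1 at 19.4 and Ifitm1 at 18.9 CPM per kilobase, and in eLCs Ifi35 at 21.5, Isg15 at 12.7 and Bst2 at 11.9.

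Cells with no Ifitm2 read were found mainly among eLCs, 20 of 79, 11 on plate 1 and 9 on plate 2, against 3 moLCs. Pooled over plates, the 20 eLCs had medians of 2965266.5 reads and 4511 genes with a read. The other 59, 18 on plate 1 and 41 on plate 2, had medians of 2690015 reads and 4434 genes. The median eLC had 3133975 reads on plate 1 and 2625799 on plate 2, and depth was not compared within plates. The 20 and the 59 had a like number of ISGs outside the list with a read, with medians of 12.5 and 13 of 67. Thinning to 2052512 reads per cell, without 7 moLCs and 12 eLCs that were shallower, gave shares with an Ifitm2 read of 96.9% in moLCs against 73.1% in eLCs. Within plates the shares after thinning were 96.8% and 61.5% in plate 1 and 97% and 80.5% in plate 2.

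**Figure D3:**
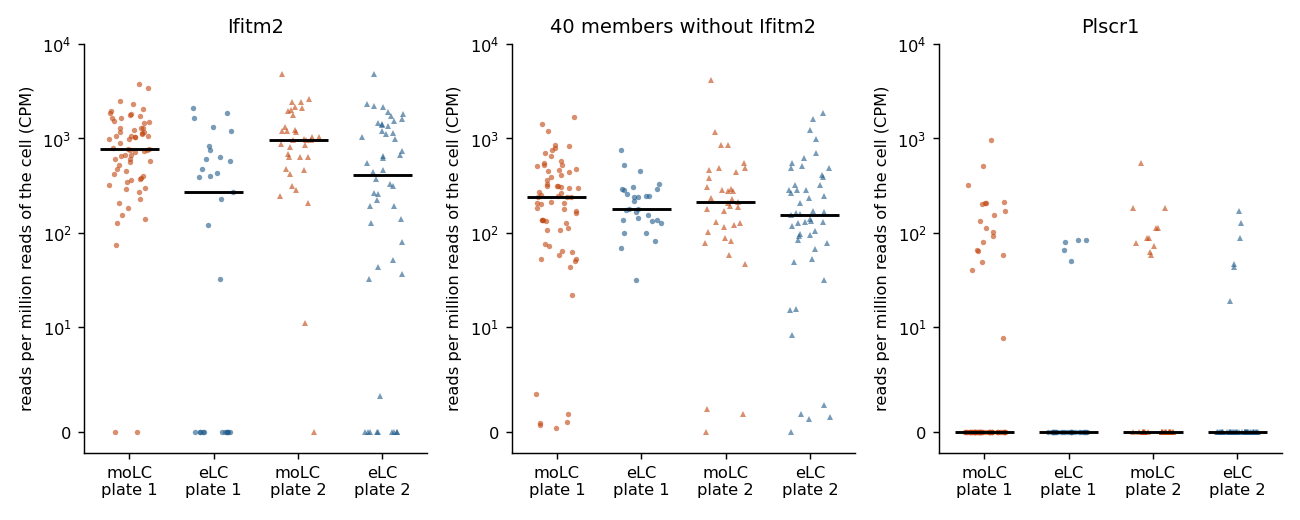
Level in each cell (y axis, CPM, linear below 10 and on a log scale above) of Ifitm2, of the 40 members without Ifitm2 and of Plscr1, by origin and plate (x axis), with 1 point per cell spread sideways and a line at the median. Ifitm2 has a row of eLCs at 0 on both plates, and Plscr1 has a median of 0 in each group with a tail that is longer in moLCs.

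Ifitm3 passed the size rule, but at low counts. It was detected in 83.5% of moLCs (74.9 to 90.1%) against 49.4% of eLCs (37.9 to 60.9%), yet the median in cells with any was 3 reads in moLCs and 2 reads in eLCs, against a median of 204 over all 6522 genes read as often. The cells ranged from 0 to 86.8 CPM in moLCs and from 0 to 32.4 CPM in eLCs, with medians of 0.776 and 0 CPM. The origins held 822 and 243 reads, 2.74 and 1.12 CPM, a log2 ratio of 1.29 (1.09 to 1.51; 1.35 in plate 1 and 1.76 in plate 2). After thinning the shares were 76% and 43.3%. At least 10 reads were found in 4 moLCs, with 269, 152, 77 and 43 reads, and in 2 eLCs, with 128 and 14. The ratio rests on these cells: without the moLC with 269 reads it was 0.74, and without the moLC with 77 reads it was 0.95 in plate 1, either of which ends the call, while without the eLC with 128 reads it was 2.35. Each of the 86 moLCs and 38 of the 39 eLCs with an Ifitm3 read also had a read of Ifitm2, and Ifitm3 reads amounted to 0.274% and 0.182% of Ifitm2 reads. The exception was the eLC with 128 Ifitm3 reads, which had none of Ifitm2. Across cells the rank correlation of the genes was 0.60 over all kept moLCs and 0.64 over the 79 eLCs, a description over cells that share plates and differ in depth. Whether single reads of Ifitm2 were counted on Ifitm3 was not tested. In these cells Ifitm3 was thus frequent by share and near the limit of counting by level.

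**Figure D4:**
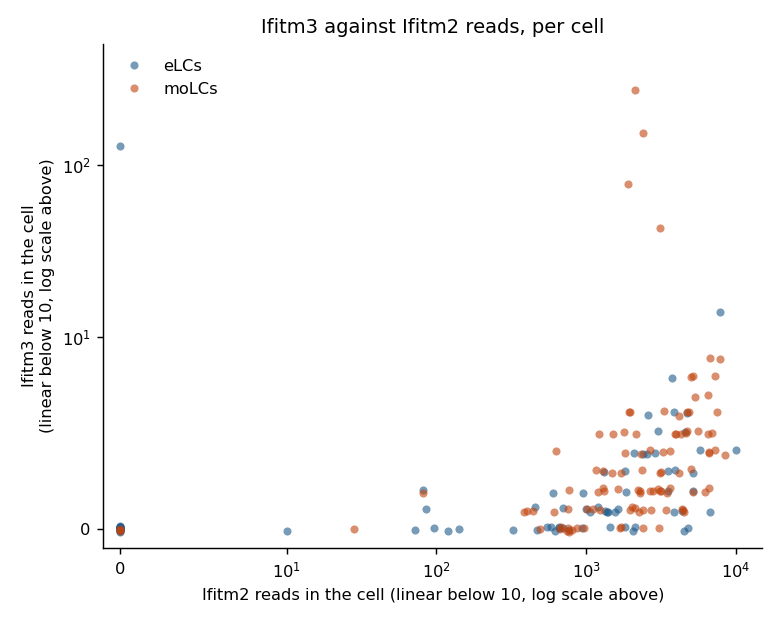
Reads of Ifitm3 (y axis) against reads of Ifitm2 (x axis) in each cell, both linear below 10 and on a log scale above, with points of moLCs and eLCs shifted slightly on the y axis. Most cells have under 10 Ifitm3 reads whatever their Ifitm2 reads, and 1 eLC with 128 Ifitm3 reads has no Ifitm2 read.

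Plscr1 (chr9:92249750-92272278, plus strand), a phospholipid scramblase of the plasma membrane that enhances antiviral responses, had the largest ratio of the 8 frequent members. It was read in 31 moLCs (30.1%, 21.5 to 39.9%) and in 11 of 79 eLCs (13.9%, 7.16 to 23.5%). The cells ranged from 0 to 953 CPM in moLCs and from 0 to 169 CPM in eLCs, with a median of 0 in both. Where it was read, the median was 324 reads in moLCs and 190 reads in eLCs, so both the share of cells and the reads per cell were higher in moLCs. Summed over cells, moLCs had 47.7 CPM against 10.2 CPM in eLCs, a log2 ratio of 2.23 (2.17 to 2.30). Plate 1 had 50.5 against 11.6 CPM (2.12) and plate 2 had 42.5 against 9.19 CPM (2.21). With any 1 cell left out the pooled ratio stayed between 2.01 and 2.58, and the size rule was still passed. The shares after thinning were 29.2% and 14.9%.

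The other membrane proteins were read in fewer cells. Ifitm1 was read in 24 moLCs and 13 eLCs, at 20.7 and 9.13 CPM (1.18), with ratios of 0.31 in plate 1 and 2.14 in plate 2. Bst2 (tetherin), which holds budding viruses on the cell surface, was read in 16 moLCs and 14 eLCs, at 10.3 and 10.8 CPM (-0.06; 0.02 in plate 1 and -1.04 in plate 2; -0.40 to 0.17 with 1 cell left out). The 3 Ifitm members lie together on chromosome 7, and their ratios of 1.18, 0.70 and 1.29 had the same direction in the pooled cells and in each plate. The share of all genes with 1 direction throughout is not given here. The ratio of Ifitm3 rests on few cells, and whether its reads are separate from those of Ifitm2 was not tested.

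The GTPases linked to interferon-gamma, which act on vacuoles with microbes, were rare. Irgm1 was read in 6 moLCs and 4 eLCs, at 9.93 and 2.53 CPM (1.98), and Igtp (Irgm3) in 2 moLCs and 5 eLCs, at 1.19 and 7.36 CPM (-2.63). The pair differed in direction, over few cells.

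Of the other effectors, Ifi35 and Samhd1 were past the share of 25%. Ifi35 was found in 42.7% of moLCs and 45.6% of eLCs, from 0 to 193 and from 0 to 225 CPM, at 35.6 and 37.1 CPM summed (-0.06; 0.14 in plate 1 and 0.09 in plate 2). Samhd1, which degrades the nucleotides that viruses need, was found in 27.2% of moLCs and 36.7% of eLCs, from 0 to 350 and from 0 to 488 CPM. Summed, it was at 32.2 against 41 CPM, a log2 ratio of -0.35 (-0.66 in plate 1, -0.08 in plate 2). Trim30a, a regulator of innate signalling, was read in 14 moLCs and 13 eLCs, at 13.5 and 4.16 CPM (1.70; 1.90 and 1.95 in the plates; 1.31 to 2.44 with 1 cell left out). Parp14, an ADP-ribosyltransferase, was read in 12 moLCs and 14 eLCs, at 6.77 and 3.47 CPM (0.96). Ifi27l2a was read in 6 moLCs and 2 eLCs (1.34), and Xaf1 in 2 cells of each origin (-1.05).

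Among the 21 members read in under 25% of cells, 8 were at least 2-fold higher in moLCs (Ifih1, Ddx58, Oasl1, Oasl2, Ifitm1, Irgm1, Trim30a and Ifi27l2a) and 5 at least 2-fold higher in eLCs (Dhx58, Eif2ak2, Oas3, Igtp and Xaf1), pooled over plates. Over the 11299 genes read as rarely, 26.5% were at least 2-fold higher in moLCs and 23.7% in eLCs. Of these 13 members, Ifih1, Ddx58, Irgm1 and Trim30a (higher in moLCs) and Dhx58 and Igtp (higher in eLCs) were also beyond 2-fold in that direction in both plates, which held for 6.18% and 5.67% of the 11299 genes. With each cell left out in turn, Trim30a kept this and the other 5 lost it. Leaving out 1 moLC of plate 2, the one with the most members read, ended it for 3 of them, with plate 2 ratios of 0.25 for Ifih1, -1.49 for Ddx58 and 0.93 for Irgm1. Irgm1 also lost it without another moLC of plate 2 (0.84), and Igtp without 1 eLC of plate 1 (5.06 there, a value that takes the floor for eLCs). Dhx58, at -1.01 in plate 1, lost it when any 1 of 62 cells was left out, and was at 1.56 there without the eLC with 567 of its reads. Xaf1, Oas3 and Ifi27l2a changed sign between plates, and 1 cell held more than 50% of the reads of an origin in Ddx58, Dhx58, Eif2ak2, Oas3, Oasl1, Oasl2, Irgm1, Igtp, Xaf1 and Ifi27l2a. At this depth and these numbers of cells a ratio of such genes describes those cells.

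Summed over the list, 400353 of the reads of moLCs and 188942 of the reads of eLCs fell on the 41 genes, 1333 and 867 CPM, or 0.133% and 0.0867% of all reads. The log2 ratio was 0.62 (0.61 to 0.63), 0.83 in plate 1 and 0.60 in plate 2. Ifitm2 made up 75% of the list in moLCs and 70.8% in eLCs, and without it the sums were 334 and 253 CPM, with a ratio of 0.40. By cell, the list took between 0 and 5168 CPM in moLCs with a median of 1184 CPM, and between 1.49 and 4914 CPM in eLCs with a median of 638 CPM. The ranges overlapped, and 80.6% of moLCs lay above the median eLC. Without Ifitm2 the medians were 230 and 166 CPM. The difference in the level of the list between origins was thus mostly one of Ifitm2.

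The number of members read in a cell did not separate the origins. The median moLC and the median eLC both had a read of 5 members, with ranges of 0 to 21 and of 1 to 13. At least 10 members were read in 9 moLCs and 3 eLCs. The number of members read had a rank correlation of 0.34 in moLCs and 0.27 in eLCs with the number of ISGs outside the list that were read, and of 0.38 and 0.11 with the number of all genes read. Between the 8 frequent members, the median rank correlation over 28 pairs was 0.03 in moLCs and 0.01 in eLCs, beside 0.02 and 0.01 over all pairs of the 6522 genes. The pair of Ifitm2 and Ifitm3 had the highest value in both origins. Ifitm2 with Plscr1 had 0.03 and -0.04, near the median of all pairs.

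**Figure D5:**
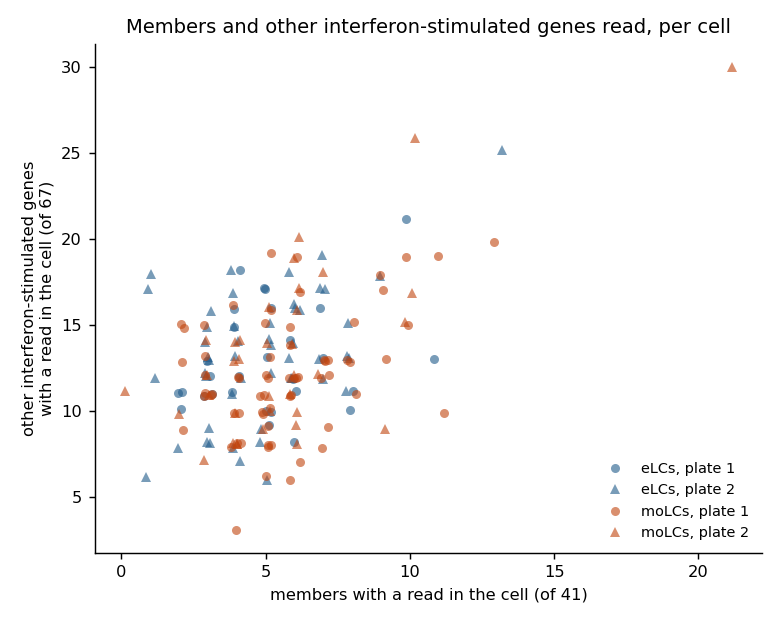
Number of members with a read (x axis, of 41) against the number of ISGs outside the list with a read (y axis, of 67) in each cell, by origin and plate, with points shifted slightly in both directions. Most cells lie between 2 and 10 members, and 1 moLC of plate 2 stands apart with 21 members and 30 other ISGs.

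Most members that were rare over all cells were read together in 1 cell. This moLC of plate 2 had a read of 21 of the 41 members, where the next highest cells had 13, and of 30 of 67 other ISGs, the most of any cell. It was not unusual in depth, with 3156299 reads and 4382 genes, and ranked 79 by genes read. In it Usp18 was at 630 CPM, Irf7 at 582, Irf9 at 481, Trim30a at 315, Ifih1 at 257, Irgm1 at 245, Eif2ak2 at 205, Parp14 at 200, Ddx58 at 194, Xaf1 at 169 and Isg15 at 156 CPM. The cell held 78.1% of the Usp18, 81.7% of the Xaf1 and 84.6% of the Oas3 reads of moLCs. The 12 members with no read were at 0 here too, where 3 reads would be 0.950 CPM. Cd207 was at 6699 CPM, below the 26237 CPM of all moLCs summed, and Epcam, an adhesion molecule of LCs, had 2820 reads. None of the plasmacytoid, dermal DC1, keratinocyte, T cell, NK cell, neutrophil or melanocyte markers had a read in it, and monocyte markers were at 167 CPM, within the range of the other moLCs. Without this cell, which was chosen after its values were seen, the ratio of Irf7 went from 0.77 to 0.04, of Usp18 from 0.03 to -2.14, of Parp14 from 0.96 to 0.44 and of Xaf1 from -1.05 to -3.48. Of the 8 frequent members 3 were then higher in moLCs, with Oas1a at -0.04 and Ifi204 at -0.10, and Plscr1 (2.21), Ifitm3 (1.30) and Ifitm2 (0.70) moved little. The ratio of the summed list was then 0.58.

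The next highest cells were 1 of each origin. A moLC of plate 1 with 13 members had Irf9 at 611 CPM, Ddx58 at 135 and Eif2ak2 at 112 CPM, with no read of Irf7 or Usp18. An eLC of plate 2 with 13 members and 25 other ISGs had Xaf1 at 447, Isg15 at 362, Ddx58 at 178 and Oas2 at 119 CPM. Cells with many members thus occurred in both origins and on both plates.

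The other genes of the pathway, from lists outside the members, were compared in the same way. Like the members, these lists were chosen with earlier results of these data known. Of 67 further ISGs with a row, 13 had no read and 20 reached the share of 25%. Among the 20, 8 had the higher level in moLCs, 12 had it in eLCs, and none passed the size rule. Their median ratio was -0.10, the same as over all tested genes, and their sum was 2480 CPM in moLCs and 2667 CPM in eLCs. Of the 7 interferon regulatory factors outside the list 6 were read as often, 3 higher in each origin, and none passed. Of 13 genes of sensing and adaptors, 4 reached this share and none passed. Of 6 negative regulators 5 did, all 5 higher in moLCs in the pooled cells, a direction held by 39.4% of the 6522 genes. Their median was 0.25 (0.69 in plate 1 and 0.02 in plate 2). Among them 1 passed, Socs3, which blocks Jak kinases downstream of several cytokines. Over the 6522 genes 0.813% passed with higher values in moLCs. Socs3 was read in 62 moLCs and 28 eLCs, at 107 and 48.3 CPM, a log2 ratio of 1.14 (2.04 in plate 1, 1.09 in plate 2). Its pooled ratio lay between 1.0 and 1.80 with each cell left out in turn, and the range within plates is not reported here.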

How the data were processed

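The authors sorted single LCs by index sorting, made cDNA with a Smart-Seq kit without molecular identifiers, sequenced it paired-end and aligned the reads to mm10 with STAR. The authors deposited 1 table of raw counts, with genes in rows, cells in columns and no scaling. The counting tool, its use of strand and the annotation are not given in the sources used here. Of the nonzero values 82.9% were even (67.1% for the members), so mates may have been counted separately, and the intervals, which take reads as independent, are then too narrow. In 8 cells the authors deposited 9 values, in 4 genes, that were not whole, so these columns were taken to hold expected counts from their counting step and were rounded to whole numbers.

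Cells were grouped by the origin in their labels and by plate. The authors' Wilcoxon test treats each cell as a replicate and was left out. Reads were summed by origin as CPM. Where an origin had 0 reads, a floor of 3 reads for the whole origin was used. Intervals are exact Poisson, Clopper-Pearson or binomial at 95%. The size rule asked for 25% or more of moLCs or eLCs with a read, and for a fold of 2 or more that had 1 direction pooled and within each plate. Every member is named, with full values for those past this share of cells. Outside the list, genes past the size rule, the receptors, Jak1, Jak2 and Tyk2 are named. Some items are not reported here. The members and lists were chosen with earlier results of these data known. Mb21d1 and Mnda, 2 genes of the lists, were not found by these names and were not used. Wells held single sorted cells, and no doublet caller was run.

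Coordinates and transcripts came from GENCODE M21 (GRCm38) and promoters from RefSeq (GRCm38.p6). Python 3.11.15 was used with scipy 1.17.1, numpy 2.4.6, matplotlib 3.10.9 and pandas 2.3.3, and edgeR 4.0.16 gave the TMM factors. The size rule and the intervals were tried on counts simulated from a Poisson model, which the intervals assume. That trial does not show how either behaves on the real counts, where few cells can hold most reads of a gene. Alternatives were other scalings, filters of cells, thinning to 2052512 reads, each plate alone, each cell left out, and other thresholds.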

Additional observations from a re-analysis of the deposited data

How the results depend on the processing

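The log2 ratio of the summed list, 0.62, kept its direction under every alternative run. It was 0.72 with TMM factors, 0.69 with totals without the 50 genes with the most reads, 0.57 with equal weight per cell, 0.71 with at most 2.5% mitochondrial reads, 0.58 after thinning, 0.83 in plate 1 alone, 0.60 in plate 2 alone, 0.40 without Ifitm2 and 0.37 without Ifitm1, Ifitm2, Ifitm3 and Bst2. Leaving out each cell in turn gave 0.58 to 0.69, the lowest without the moLC with the most members read, an alternative chosen after seeing the data (0.58). Counting a member only with at least 10 reads gave medians of 4 members per cell in moLCs and 3 in eLCs, in place of 5 in both. The number of members past the size rule, 2, became 4 of 17 with a minimum of 10% of cells (Ifih1, Ifitm3, Plscr1 and Trim30a; 4.99% of all genes read as often), 1 of 3 with 50% (Ifitm3; 0.63% of all) and 8 of 29 with no minimum (those 4, Ddx58 and Irgm1, and Dhx58 and Igtp higher in eLCs; 8.25% of all). Of the 6 of these that the 25% minimum leaves out, Trim30a alone still passed with each cell left out in turn. Of the 29 members with a read, 2 changed sign with TMM factors, 6 after thinning and 8 in plate 1 alone. No paired analysis was possible because no label ties a cell to an animal or pairs cells of the origins, and each origin is 1 sample. Differences between animals cannot be told apart from differences between origins, and plate is the one batch the labels give.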
